A study of Mus musculus with 2 samples.

Results

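The immunity-related GTPases (IRG proteins) described here are 7 mouse genes, Irgm1, Irgm2, Igtp, Iigp1, Ifi47, Tgtp1 and Tgtp2. They were found by gene symbol in the deposited transcript tables and joined by gene identifier to the gene tables, where all 7 were present among 55536 gene identifiers. Irgm1, Irgm2 and Igtp make up the regulatory class of 3 genes. Iigp1, Ifi47, Tgtp1 and Tgtp2 make up the effector class of 4 genes.

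PolyA-selected RNA was sequenced from macrophages grown in culture from the bone marrow of C57BL/6J mice, as 1 group of 2 biological replicates. Per the sample descriptions, both cultures were given 100 ng/ml Lipid A (the lipid part of lipopolysaccharide) over 12 h, were washed and rested for 12 h, and received 100 ng/ml Lipid A once more for 300 min before harvest. A separate treatment label instead reads lipoprotein A and types it as a protein, and which is right could not be settled. The 2 biosamples have identifiers of their own but 1 donor identifier, so the spread between them may understate that between animals. Sex and age were recorded as not collected. No untreated library was used here, so no value below is a response to the treatment. With 1 group of 2 libraries no p-value was computed, since an exact sign-flip test over 2 libraries cannot go below 0.5.

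IRG proteins are large cytosolic GTPases that mouse cells make in quantity when interferon signals through STAT and IRF transcription factors. Effector IRG proteins load onto the membrane of vacuoles that hold parasites or bacteria such as Toxoplasma and Chlamydia, and take part in breaking that membrane. Regulatory IRG proteins sit on the cell's own membranes and keep the effectors in their inactive, GDP-bound state there. In the regulatory class a methionine replaces the lysine that GTPases usually carry in the first nucleotide-binding motif (G1, or P-loop).

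That residue could be read in the gene models. The leading transcript of each regulatory gene held the methionine codon ATG at this place, at codon 73 of Irgm1-202, codon 77 of Irgm2-202 and codon 97 of Igtp-201. The leading transcript of each effector gene held the lysine codon AAG, at codon 69 of Tgtp1-201 and Tgtp2-201, codon 82 of Iigp1-202 and codon 87 of Ifi47-201. The 48 coding bases around it are shown 5′ to 3′ on the coding strand for the chromosome 11 genes, read from the mm10 transcripts of GENCODE release M21, with the class codon in capitals. These lines show the letters that define the contrast between the classes. The stretches lie at chr11:48866749-48866796 (minus strand) for Irgm1, chr11:58219683-58219730 (plus) for Irgm2, chr11:58206263-58206310 (plus) for Igtp, chr11:49095636-49095683 (plus) for Ifi47, chr11:48987655-48987702 (minus) for Tgtp1 and chr11:49059522-49059569 (minus) for Tgtp2.
Irgm1: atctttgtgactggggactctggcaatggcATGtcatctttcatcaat
Irgm2: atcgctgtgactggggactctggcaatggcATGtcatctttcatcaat
Igtp: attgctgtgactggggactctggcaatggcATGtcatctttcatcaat
Ifi47: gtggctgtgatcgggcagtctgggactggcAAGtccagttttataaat
Tgtp1: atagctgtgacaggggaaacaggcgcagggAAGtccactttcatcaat
Tgtp2: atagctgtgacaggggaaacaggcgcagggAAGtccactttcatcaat

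Within the regulatory class, the 48-base stretches differed at 1 position between Igtp and Irgm2, at 2 between Irgm1 and Irgm2 and at 3 between Igtp and Irgm1. Tgtp1 and Tgtp2 did not differ in this stretch. The effector Ifi47 differed from Tgtp1 at 15 positions, as many as the 12 to 16 that separated members of different classes. Over whole coding sequences, the regulatory pairs were identical at 69.4% (Irgm1 and Irgm2), 71.3% (Irgm1 and Igtp) and 75.6% (Irgm2 and Igtp) of aligned bases. The effector Iigp1 was identical to Ifi47 at 66.4%, and Ifi47 to Tgtp1 at 63.3%, within or just above the 61.4% to 66.1% found between classes. The regulatory genes were thus closer to each other in sequence than the effector genes were, the Tgtp pair apart.

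Levels are given as deposited gene TPM (transcript abundance corrected for length and scaled to a fixed total per library) for replicates 1 and 2 in that order. Total counts over genes were 50503159 and 46342331. All 7 members stood at 100 TPM or more in both libraries, against 1193 of 22028 protein-coding genes, or 5.42%. In RNA from a whole culture, fewer cells carrying a transcript and less of it per cell cannot be told apart. The macrophage label was checked on 10 markers, which were all at 10 TPM or more in both libraries (27.3% of protein-coding genes were), with Lyz2 highest at 10292 and 11210 TPM. Of 10 T and NK cell markers, 9 were under 1 TPM in both libraries, and the exception, Cd4, was at 42.9 and 40.2 TPM. Of 5 B cell and 6 dendritic cell markers, 4 and 5 were under 1 TPM in both. The exceptions were Cd79b (2.92 and 2.65 TPM) and Ccr7 (4.87 and 2.48 TPM). Of 9 neutrophil and 8 stromal and endothelial markers, 6 and 5 were under 1 TPM in both, and their sums are given below. A level under 1 TPM was common, since 44.4% of protein-coding genes were at 1 TPM or more in both libraries.

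Among the regulators, Irgm1, which acts on lysosomal and Golgi membranes and in autophagy (chr11:48861968-48871683, minus strand), was at 641.9 and 767.6 TPM, or 705 ± 88.9 (SD, n = 2). It ranked 177 among protein-coding genes by its mean. Igtp, also called Irgm3, which is found on the endoplasmic reticulum and lipid droplets (chr11:58199556-58207591, plus strand), was at 374.2 and 443.4 TPM, or 409 ± 48.9 (SD, n = 2). Irgm2, a Golgi-associated regulator (chr11:58199618-58222782, plus strand), was at 233.3 and 292.1 TPM, or 263 ± 41.5 (SD, n = 2). The order Irgm1, Igtp, Irgm2 was the same in both libraries, and the ranges of the regulators did not overlap.

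Among the effectors, Tgtp2, one of a pair of genes that encode the vacuole-loading GTPase Irgb6 (chr11:49057194-49064206, minus strand), was highest of the 7 at 960.9 and 1220.4 TPM, or 1091 ± 183 (SD, n = 2). It ranked 108 among protein-coding genes. Tgtp1, the other copy (chr11:48985327-48994172, minus strand), was the lowest of the 7 at 166.7 and 201.0 TPM, or 184 ± 24.2 (SD, n = 2), and ranked 754. Among the 7 genes, the highest and the lowest level were therefore assigned to the most similar pair.

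Ifi47, which encodes Irgd (chr11:49076587-49096974, plus strand), was at 446.8 and 510.2 TPM, or 478 ± 44.9 (SD, n = 2). Iigp1, which encodes Irga6, the best-studied effector (chr18:60376027-60392634, plus strand), was at 541.4 and 380.0 TPM, or 461 ± 114 (SD, n = 2). Iigp1 was the only one of the 7 whose TPM was lower in replicate 2 than in replicate 1. From high to low the 7 genes ran Tgtp2, Irgm1, Ifi47, Iigp1, Igtp, Irgm2 and Tgtp1. The ranges of Ifi47 and Iigp1 overlapped, as did those of Iigp1 and Igtp, and neither pair kept its order in both libraries.

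**Figure D1:**
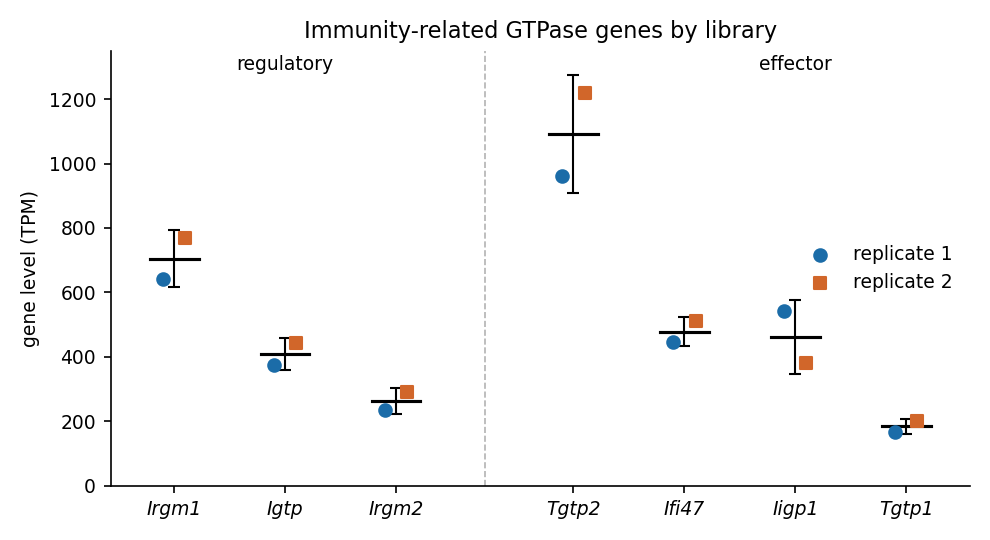
Gene level in TPM (linear axis from 0) of the 7 immunity-related GTPase genes, with regulatory genes on the left and effector genes on the right. Circles are replicate 1, squares replicate 2, bars the mean and whiskers the SD (n = 2); Tgtp2 lies at 960.9 and 1220.4 TPM, above every other member, and Iigp1 is the only gene whose square lies under its circle.

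The effector class summed to more than the regulatory class, and without the Tgtp pair the order of the sums was reversed. The 4 effectors summed to 2116 and 2312 TPM and the 3 regulators to 1249 and 1503 TPM. The log2 ratio of regulatory over effector TPM was -0.76 and -0.62, or -0.69 ± 0.10 (SD, n = 2). Without Tgtp1 and Tgtp2 the effector sum fell to 988.1 and 890.2 TPM, and the ratio turned to 0.34 and 0.76, with the regulators higher in both libraries. The Tgtp pair held 53.3% and 61.5% of effector TPM. The class medians were closer than the sums, at 374.2 and 443.4 TPM for regulators against 494.1 and 445.1 TPM for effectors.

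Of the 12 pairs of a regulator with an effector, the regulator was higher in both libraries in 5 and the effector in 6, and the remaining pair, Igtp and Iigp1, changed order. Irgm1 exceeded Iigp1, Ifi47 and Tgtp1, with a log2 ratio over Tgtp1 of 1.95 and 1.93. Igtp and Irgm2 exceeded Tgtp1. Irgm2 lay under Tgtp2 by the widest margin, a log2 ratio of -2.04 and -2.06. The regulator-to-effector ratio in these cells thus depended on the effector chosen. The 7 genes together took 3365 and 3815 TPM, which is 0.337% and 0.381% of all TPM.

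The genes whose levels lay nearest to a member in both libraries were found by distance in log2(TPM + 1) over the 2 libraries. For Irgm1 they were Capg (650.3 and 771.5 TPM), Rnf213 (615.8 and 782.8 TPM) and Pik3ap1 (615.4 and 743.2 TPM). For Tgtp2 they were Lcp1 (959.5 and 1194 TPM), Spp1 (935.3 and 1223 TPM) and Arhgdib (1009 and 1198 TPM). With 2 libraries this is a likeness in level only.

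The Tgtp levels rest on how reads were divided between near-identical copies. Tgtp1-201 and Tgtp2-201 differed at 6 of 2810 aligned bases, with 13 gap bases, and at 4 of 1245 coding bases. Tgtp1 was assigned 15321 and 16979 counts and Tgtp2 83276 and 68816. Tgtp1 took 15.5% of the pair's counts in replicate 1 (95% Wilson interval 15.3% to 15.8%) and 19.8% in replicate 2 (19.5% to 20.1%). These intervals cover counting error only, not error in dividing the reads. The deposited posterior SD of the Tgtp1 count, which reflects the division, was 105.6 and 109.5 counts, and that of Irgm1 and of Iigp1 was 0. In TPM the Tgtp1 share was 14.8% and 14.1%, and Tgtp2 exceeded Tgtp1 5.76-fold and 6.07-fold.

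A short transcript model set part of the Tgtp2 level. Tgtp2-202 is a 370-base processed transcript without a coding sequence that shares 242 bases with the coding Tgtp2-201. It was assigned 277 counts in replicate 1 and 1751 in replicate 2, and its TPM was 63.0 and 426.7. The second quantification assigned it 2454 and 3582 counts, at 361.7 and 600.4 TPM, so its level in replicate 1 in particular depended on the quantification. The coding Tgtp2-201 was at 897.9 and 793.7 TPM. The summed Tgtp2 level was therefore higher in replicate 2, while Tgtp2-201 alone was lower. Counting only protein-coding transcripts, an alternative added after seeing the data, put Tgtp2 at 846 ± 73.7 TPM (SD, n = 2), still the highest of the 7. In replicate 2 its lead over Irgm1 was then narrow, at 793.7 against 767.1 TPM. The class ratio on that basis was -0.51 on the log2 scale, as a mean of the libraries. The effector sums given above include Tgtp2-202, which added more in replicate 2. From protein-coding transcripts alone, the effector sum was lower in replicate 2 than in replicate 1. The class ratio then also lay further apart between the libraries.

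Transcript use was alike between libraries for most members. GENCODE lists 24 transcripts over the 7 genes, and the same transcript led its gene in both libraries and in both deposited quantifications in 7 of 7 genes. The share of all genes for which this holds was not computed, so the count describes the members only. The first quantification was made from a transcriptome alignment and the second from the reads. In the first, Tgtp1-201 held 98.7% and 99.4% of Tgtp1 TPM, Igtp-201 held 89.5% and 92.2% of Igtp, and Ifi47-201 held 91.1% and 89.8% of Ifi47. Iigp1-202 held 92.3% and 88.0% of Iigp1. The minor Igtp transcripts, Igtp-202 with 53 codons and Igtp-203 with 72, do not hold the class codon and took 6.11% and 4.08%, and 4.35% and 3.70%. Tgtp2-201 held 93.4% and 65.0%, the widest gap between libraries among the leading transcripts, and 69.3% and 54.5% in the second quantification.

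In the first quantification, Irgm1 and Irgm2 were the 2 members with a minor transcript at 10% or more in both libraries. In the second there were 5 such members, with Ifi47, Iigp1 and Tgtp2 added, and Iigp1-201 held 14.8% and 18.2% there. The share of all genes with such a transcript was not computed either. Irgm1-202, which encodes 393 codons, held 76.3% and 78.6% in the first quantification and 68.0% and 71.3% in the second. Irgm1-201 starts 46 bases away, and its reading frame has 16 more codons (409). Irgm1-201 held 23.7% and 21.4% in the first quantification and 31.9% and 28.6% in the second. Both carry the ATG codon of the class. For Irgm2 in the first quantification, Irgm2-202 held 81.9% and 70.2% and Irgm2-203, which has 12 more codons, held 12.1% and 11.4%.

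Irgm2-201 starts 15410 bases upstream of Irgm2-202, within the neighbouring Igtp gene, and encodes the same number of codons as Irgm2-202 (395). It held 5.99% of Irgm2 TPM in replicate 1 and 18.4% in replicate 2 in the first quantification, and 3.13% and 12.0% in the second. The exons of Irgm2 and Igtp share 162 bases on the same strand, and reads there could belong to either gene. Ifi47 has a comparable distant start, since Ifi47-202 begins 10452 bases upstream of Ifi47-201 and encodes the same 420 codons. It held 8.09% and 9.39% of Ifi47 TPM in the first quantification and 18.2% and 20.1% in the second. The exons of Ifi47 share 111 bases on the same strand with Olfr56, which was assigned 4171 and 3248 counts. The exons of Tgtp1 share 223 bases on the same strand with Gm12185, which was assigned 1814 and 1611 counts.

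**Figure D2:**
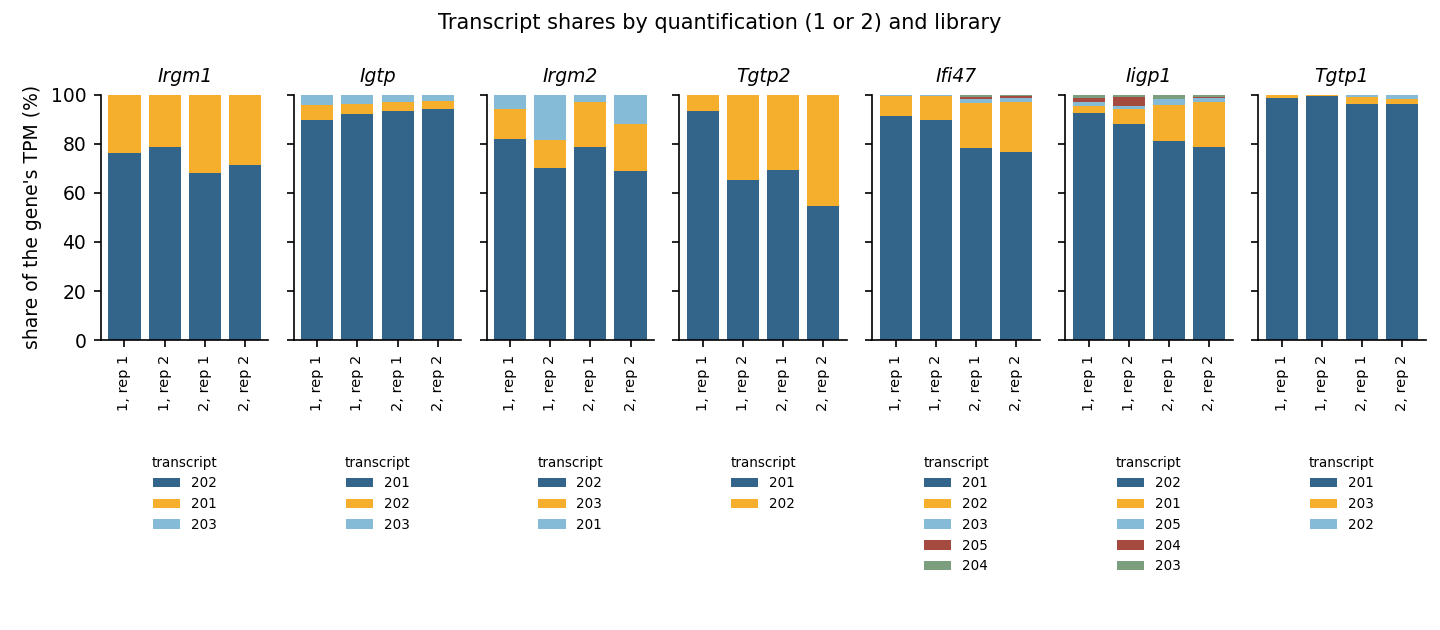
Share of each gene's TPM (%) held by its GENCODE transcripts, 1 panel per gene, with 4 bars for the first quantification (1) and the second (2) in replicates 1 and 2. The dark lowest segment, the leading transcript, is the same in all 4 bars of each gene; for Tgtp2 it falls from 93.4% in replicate 1 to 65.0% in replicate 2 of the first quantification.

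The second quantification gave similar gene levels. None of the 7 members was 2-fold or more apart between quantifications, against 162 of 10179 protein-coding genes, or 1.59%. Tgtp2 was at 1178 and 1320 TPM in the second, the member with the largest rise over the first, and Irgm1 was at 590.5 and 708.0 TPM. The Tgtp2 rise lay in the noncoding Tgtp2-202, while the coding Tgtp2-201 was lower in the second, at 816.6 and 719.8 TPM. The ratio of the second over the first mean TPM ran from 0.921 (Irgm1) to 1.15 (Tgtp2).

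Between the libraries, members were compared with counts scaled by edgeR's TMM factors, over 12543 genes. None of the 7 lay 2-fold or more apart, against 528 genes, or 4.21%. Irgm1, Irgm2 and Igtp had log2 ratios of replicate 2 over replicate 1 of 0.24, 0.31 and 0.24. The effectors were spread more widely, with Tgtp1 at 0.26, Ifi47 at 0.18, Tgtp2 at -0.16 and Iigp1 at -0.52. The median gene differed by 0.21 in either direction. By gene TPM in place of counts, an alternative added after seeing the data, the sign of Tgtp2 turned to 0.34.

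Iigp1 was the member with the widest gap, from 51536 counts to 33072, and 83.9% of all genes compared had a smaller one. Of the other IRG genes, those on the same chromosome were lower in replicate 2 as well, with Gm4951 at 131.5 and 108.1 TPM, F830016B08Rik at 9.70 and 8.20 TPM and Gm4841 at 8.0 and 7.82 TPM. On chromosome 11, 9930111J21Rik2 (85.1 and 81.1 TPM) and 9930111J21Rik1 (42.2 and 39.3 TPM) were lower too. The other chromosome 11 genes of this list were higher in replicate 2. These were Gm12250 (218.3 and 254.4 TPM), Gm5431 (150.5 and 171.8 TPM) and Gm12185 (15.7 and 16.1 TPM). Irgq, on chromosome 7, was higher as well (3.06 and 3.78 TPM). Neutrophil markers summed to 66.9 TPM in replicate 1 and 4.45 TPM in replicate 2. Most of it was S100a9 (37.85 and 2.23 TPM) and S100a8 (23.12 and 1.57 TPM). Of the 9 neutrophil markers, 6 were under 1 TPM in both, with Ly6g and Retnlg at 0 counts in both. T and NK cell markers summed to 44.3 and 40.2 TPM, nearly all of it Cd4, and 7 of 10 were at 0 counts in replicate 2. Stromal and endothelial markers summed to 14.6 and 48.1 TPM, mostly Kdr. The part of these cells in the Iigp1 gap was not tested.

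**Figure D3:**
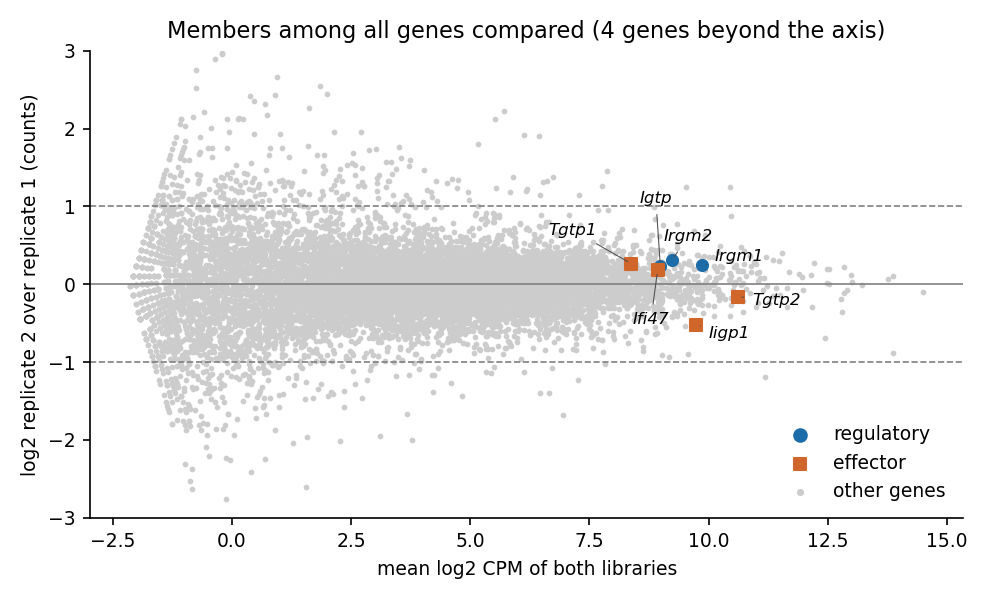
Log2 ratio of replicate 2 over replicate 1 from TMM-scaled counts against mean log2 CPM (counts scaled to the library total) for 12543 genes in grey, with the regulatory members as circles and the effector members as squares. Dashed lines mark 2-fold; all 7 members lie between them, Iigp1 lowest at -0.52, and 4 genes lie beyond the axis.

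The promoters of 4 members held the same arrangement of interferon-type letters. RefSeq promoter windows (build GRCm38.p6, 250 bases before to 50 after each gene start) were matched by symbol for 6 of the 7 members. They were searched on both strands for GAAANNGAA, the core of the interferon-stimulated response element (ISRE) bound by STAT and IRF factors, and for TTCNNNGAA, the gamma-activated site (GAS) bound by STAT factors. ISRE letters were in 5 of the 6 windows and GAS letters in 4, against 8.56% and 8.30% of 32851 windows. In Igtp, Irgm2, Tgtp1 and Tgtp2 the ISRE letters began 11 bases after the GAS letters, with 2 bases between them. That spacing was noticed in these windows first and then counted, and 8 windows (0.0244%) held it, of which 4 belonged to members. The others were those of Gm12185, which is an IRG gene too, Adar, Olfr382 and LOC115488470.

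The lines below show that arrangement in both a regulatory pair and an effector pair, 5′ to 3′ on the strand of the gene and aligned on the GAS letters, with both motifs in capitals. They cover chr11:58199496-58199555 (plus strand) for Igtp, chr11:58214887-58214946 (plus) for Irgm2, chr11:48992290-48992349 (minus) for Tgtp1 and chr11:49064249-49064308 (minus) for Tgtp2. The 30 bases of Irgm1 at chr11:48871433-48871462 (minus strand) hold 2 overlapping ISRE matches and are shown for contrast.
Igtp: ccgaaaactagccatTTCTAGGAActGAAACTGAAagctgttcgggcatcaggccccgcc
Irgm2: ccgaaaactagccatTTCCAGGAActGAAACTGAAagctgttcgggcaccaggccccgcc
Tgtp1: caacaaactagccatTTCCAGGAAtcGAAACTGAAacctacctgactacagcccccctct
Tgtp2: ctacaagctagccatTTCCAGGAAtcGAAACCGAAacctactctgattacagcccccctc
Irgm1: agcctgtttcaaGAAATAGAAACCGAAact

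Relative to the RefSeq start, the GAS letters began at -45 in Igtp, -75 in Irgm2, -88 in Tgtp1 and -81 in Tgtp2. The window of Irgm1 held no GAS match, and its ISRE matches began at -30 and -24. The window of Ifi47 held neither motif, but it lies at the distant start of Ifi47-202 and not at that of the leading Ifi47-201. A match describes letters and is not a measured binding site. The 4 members that share the arrangement ran from Tgtp1 at 184 TPM to Tgtp2 at 1091 TPM, and Gm12185, which holds it too, was at 15.7 and 16.1 TPM.

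**Figure D4:**
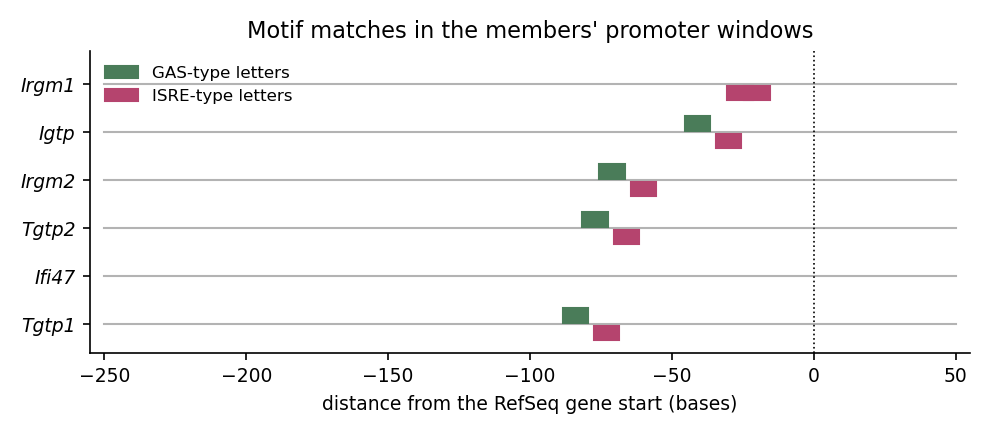
Positions of GAS-type (green, above the line) and ISRE-type (pink, under the line) letters in the 300-base RefSeq promoter windows of 6 members, in bases from the gene start (dotted line). Igtp, Irgm2, Tgtp2 and Tgtp1 each hold a GAS match followed by an ISRE match, Irgm1 holds ISRE matches alone and Ifi47 holds none.

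The interferon pathway upstream of these genes was read from fixed lists. Among 8 ligand genes, 1 was at 1 TPM or more in both libraries, against 44.4% of protein-coding genes. This was Ifnb1, the interferon-beta gene that macrophages transcribe after Toll-like receptor 4 engagement, at 11.3 and 5.91 TPM (199 and 96 counts). Ifng, the interferon-gamma gene made mainly by T and NK cells, had 21 counts in replicate 1 and 0 in replicate 2, where 0 allows up to 3 counts, which is 0.0647 CPM. Ifna1, Ifna4, Ifna5, Ifnl2 and Ifnl3 had 0 counts in both libraries, and Ifna2 had 0 and 1. Transcripts of the 8 listed ligand genes were thus scarce beside the IRG transcripts at this time point. Ligand genes outside the list were not examined. Both listed ligands with more than 1 count were lower in replicate 2.

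All 7 receptor and kinase genes were at 10 TPM or more in both libraries, as were 27.3% of protein-coding genes. The interferon-gamma receptor chains were at 63.0 and 50.9 TPM for Ifngr1 and 68.9 and 88.8 TPM for Ifngr2. The type I receptor chains were at 52.6 and 66.3 TPM for Ifnar1 and 176.2 and 192.2 TPM for Ifnar2. The receptor-bound kinases were at 118.8 and 140.3 TPM for Jak2, 86.5 and 114.1 TPM for Jak1, and 67.7 and 67.1 TPM for Tyk2.

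All 6 transcription factors of the pathway were also at 10 TPM or more, beside the same 27.3%. Irf7, which amplifies type I interferon, was at 2327 and 2096 TPM, above every IRG gene. Stat2 was at 425.5 and 469.0 TPM and Irf1, a direct activator of IRG genes, at 258.9 and 270.1 TPM. Irf9, a partner of Stat2, was at 74.1 and 81.4 TPM, and Irf8 at 72.7 and 74.9 TPM.

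The 4 feedback inhibitors differed in level. Usp18, which blocks the type I receptor, was at 511.1 and 706.3 TPM, in the range of the IRG genes. Socs3 was at 52.8 and 56.6 TPM, the phosphatase Ptpn2 at 46.3 and 41.7 TPM, and Socs1, an inhibitor of JAK kinases, lowest at 13.9 and 12.6 TPM.

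Of 10 other genes of the family, 9 were at 1 TPM or more in both libraries and 3 at 100 TPM or more, against 44.4% and 5.42% of protein-coding genes. The highest was Gm12250, known as Irgb10 (chr11:58187739-58189012), at 218.3 and 254.4 TPM. It is annotated as a processed pseudogene in GENCODE M21, so a filter on protein-coding genes would leave it out. Gm5431 followed at 150.5 and 171.8 TPM and Gm4951 at 131.5 and 108.1 TPM. Irgc1, a family member not known to depend on interferon, was at 0 counts in both libraries, and Irgq, the quasi-GTPase, at 3.06 and 3.78 TPM. The 10 genes summed to 664.0 and 690.6 TPM, less than Tgtp2 alone.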

How the data were processed

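The 2 biological replicates of 1 group were used, and the 7 members and all gene lists were chosen with earlier results of these data known. The authors deposited, for each library, gene and transcript tables with expected counts, TPM and FPKM, and a second transcript table with estimated counts and TPM. The README deposited with each sample gives mm10 and GENCODE M21. Strand handling, aligner, quantifiers and versions were not given in the sources used here. Deposited percent values per transcript and TPM interval bounds (a signal) were used for no result.

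Expected counts were rounded before scaling. Ratios between libraries used edgeR 4.0.16 (R 4.3.3) with TMM factors, filterByExpr and a prior count of 0.5, and DESeq2 1.42.0 gave alternative size factors. The ratio script was tested on simulated data. Levels are gene TPM, and a transcript's share is the percent of its gene's TPM that it held. Second-quantification levels were summed over transcripts, and folds between quantifications used a pseudocount of 1 TPM. Coding sequences were aligned globally in Biopython 1.88 and tables handled in pandas 2.3.3. The text names all 7 members, the genes of the interferon lists except 1 that is not reported here, the 3 highest and the lowest of the other lists, and transcripts at 10% or more of a member in both libraries; other names were chosen after their values were seen. All alternatives were planned except those said to be added.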

Additional observations from a re-analysis of the deposited data

How the results depend on the processing

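Regulatory over effector TPM (log2 -0.69) moved to -0.88 in the second quantification, -0.20 with class medians, -0.11 with the mean log2(TPM + 1) of each class and, as an alternative added after seeing the data, -0.51 with protein-coding transcripts only. It reversed to 0.55 without Tgtp1 and Tgtp2, and leaving out a replicate gave -0.76 to -0.62. The summed level of the 7 members (3590 TPM) came to 2574 in FPKM, which is another unit, and 3365 to 3815 with a replicate left out. The Tgtp1 share of the pair (14.5%) moved to 12.5% in the second quantification, 17.7% by counts and 17.9% with protein-coding transcripts only, and was 14.1% to 14.8% with a replicate left out. In the second quantification, the class ratio and this share both include the higher level of Tgtp2-202 there. The ratio of replicate 2 over replicate 1 of Tgtp2 reversed from -0.16 to 0.34 (log2) by gene TPM, where Tgtp2-202 adds to the sum, and was -0.18 with protein-coding transcripts only. The count of members 2-fold apart stayed at 0 in each planned setting, and no member's log2 ratio shifted by more than 0.033 among them. The share of all genes past that line ran from 1.95% (mean count of 100 or more) to 27.8% (5481 genes, no filter), against 528 genes. No paired analysis was possible because the series has 1 group. With 2 libraries of 1 donor identifier, the SDs carry little precision.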

Other observations

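Genes that work beside IRG proteins at vacuoles covered a wide range of levels. All 11 guanylate-binding protein genes, the other interferon-inducible GTPase family of the vacuole, were at 1 TPM or more in both libraries and 6 at 100 TPM or more, against 44.4% and 5.42% of protein-coding genes. Gbp2 was at 1111 and 1369 TPM, Gbp5 at 679.1 and 797.3 TPM and Gbp6 at 382.8 and 389.1 TPM, and Gbp2b was lowest at 3.81 and 6.56 TPM. The 11 genes summed to 2926 and 3371 TPM, less than the 7 IRG genes in each library. In replicate 2 the IRG sum included 426.7 TPM of the noncoding Tgtp2-202, without which the sums lay close together.

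Of 7 genes for ubiquitin ligases and adaptors that act at damaged vacuoles, 6 were at 10 TPM or more in both libraries, against 27.3% of protein-coding genes. The adaptor Sqstm1 was at 796.1 and 1124 TPM, the ligase Rnf213 at 615.8 and 782.8 TPM and Trim21 at 143.1 and 188.5 TPM, while Traf6 was lowest at 8.15 and 7.93 TPM. Correct loading of effector IRG proteins depends on the autophagy conjugation machinery. Of its 12 listed genes, 10 were at 10 TPM or more in both libraries and 1, Gabarap, at 100 TPM or more. The shares of protein-coding genes at these levels were 27.3% and 5.42%. Gabarap stood at 833.1 and 702.8 TPM, Map1lc3b at 68.5 and 80.9 TPM and Gabarapl1 at 69.1 and 73.7 TPM, and Atg10 was lowest at 9.53 and 9.02 TPM.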
